A study of Homo sapiens with 9 samples.

Results

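ASNS, ALDH18A1, PYCR1, GLUL, CTH, CBS, GPT2 and GOT1 encode enzymes that build non-essential amino acids, and their expression was followed in K562 cells treated with rapamycin. The 8 genes were taken by name from a read count table of 58347 Ensembl gene IDs, and earlier results of these data were known when they were chosen. All 8 passed the filter on low counts that left 23675 genes to test. K562 is an established human erythroleukaemia line. The labels describe the cells as K562-FIRE: each group carried dCas9, an MS2-Fkbp fusion and an SS18-Frb fusion, expressed from EF1a promoters, with SS18 being a subunit of the BAF chromatin remodelling complex. The drug bridges the Fkbp and Frb domains, which places SS18 where the guide RNA (sgRNA) binds. Cells were grown in Iscove's medium with serum and GlutaMAX, a stabilised form of glutamine.

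The 4 groups were the HBG1 promoter sgRNA with DMSO (n = 3 libraries), the HBG1 promoter sgRNA with 10 nM rapamycin (n = 3), a non-targeting sgRNA with DMSO (n = 1) and the non-targeting sgRNA with 10 nM rapamycin (n = 2), all after 24 h. The study asked whether recruited BAF raises HBG1, and none of the 8 genes is a target of the guide. The labels do not say whether replicates came from separate cultures, so p-values measure the spread between these libraries, which may be technical. K562 without the recruitment parts was not analysed here.

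Libraries held 19797409 to 31619671 counts. HBG1, the targeted gene, stood at 137 to 437 CPM (counts scaled to library size by the TMM method) with its guide and DMSO, at 1533 to 2448 CPM with its guide and rapamycin, and at 8233 to 8944 CPM in the 3 non-targeting libraries. All 8 erythroid markers checked averaged at least 1 CPM, among them GATA1 at 190 to 274 CPM. Of markers of other cell types, CD8A and TTR were at 0 in every library and CDH1 reached at most 0.129 CPM, while EPCAM (36.9 to 50.01 CPM) and KRT8 (320.2 to 524 CPM) of the epithelial list were present. Their part in the results was not tested.

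Asparagine synthetase (ASNS) makes asparagine from aspartate with glutamine as the nitrogen donor. GOT1 is the cytosolic aspartate aminotransferase, and GPT2, the mitochondrial alanine aminotransferase, moves an amino group between glutamate and alanine. Proline is built from glutamate by ALDH18A1 and then by PYCR1 in mitochondria, GLUL joins ammonia to glutamate to give glutamine, and CBS and CTH are the successive enzymes of transsulfuration, which ends in cysteine. Several of these genes, ASNS above all, are known targets of ATF4, a transcription factor of the amino acid response. Rapamycin inhibits mTORC1, the growth kinase complex that promotes ATF4 synthesis, in cells with either guide.

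Start-site windows of 6 of the 8 genes (all but PYCR1 and GPT2) were matched by symbol in the RefSeq promoter table (GRCh38.p14), 10 windows in all, each from 250 bases before to 50 bases after an annotated start. They were searched on both strands for the C/EBP-ATF response element, spelled TGATGNAA, to which ATF4 is known to bind, and for the E-box CACGTG, a site of the MYC family. The response element was found in 3.62% of the 35116 windows of all genes and the E-box in 7.26%, and the 2 motifs did not overlap in the members' windows. Among the members the response element was in 1 of the 2 ASNS windows, from 68 to 61 bases before the start, and in the GOT1 window, from 198 to 191 bases before the start on the opposite strand. ALDH18A1 held an E-box from 136 to 131 bases before its start, and no match to either motif was found in the windows of GLUL (2 windows), CTH (1) and CBS (3). The 250 bases before the start are shown for the 3 genes with a match, on the strand of the gene and with the match in capitals. They run over chr7:97872409-97872658 for ASNS, chr10:99430625-99430874 for GOT1 and chr10:95656712-95656961 for ALDH18A1, all on the minus strand. A match describes letters and not a bound site. Whether a match goes with the rapamycin change was not tested.
ASNS: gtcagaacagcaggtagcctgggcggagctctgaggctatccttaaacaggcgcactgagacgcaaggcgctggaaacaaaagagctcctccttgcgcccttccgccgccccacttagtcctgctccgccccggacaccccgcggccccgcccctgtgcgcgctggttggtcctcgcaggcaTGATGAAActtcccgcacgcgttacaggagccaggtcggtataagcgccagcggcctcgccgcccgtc
GOT1: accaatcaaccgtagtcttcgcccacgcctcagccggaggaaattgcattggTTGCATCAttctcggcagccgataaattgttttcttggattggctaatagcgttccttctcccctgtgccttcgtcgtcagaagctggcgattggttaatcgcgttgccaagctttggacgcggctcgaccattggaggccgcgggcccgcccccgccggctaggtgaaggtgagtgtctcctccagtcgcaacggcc
ALDH18A1: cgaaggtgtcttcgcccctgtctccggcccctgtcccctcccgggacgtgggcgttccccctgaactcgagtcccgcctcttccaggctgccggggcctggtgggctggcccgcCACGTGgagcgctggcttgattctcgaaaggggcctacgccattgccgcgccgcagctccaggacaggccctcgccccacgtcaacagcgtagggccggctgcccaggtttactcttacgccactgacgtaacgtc

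Under rapamycin 5 of the 8 genes fell with the HBG1 sgRNA, and all 8 had a negative fold change. ASNS fell to 56.6% of its DMSO level, CBS to 65.0%, ALDH18A1 to 76.2%, GLUL to 78.5% and PYCR1 to 79.3%. GPT2 (60.8%), GOT1 (84.0%) and CTH (86.0%) did not pass the test, the quasi-likelihood test of edgeR with p-values adjusted over all 23675 genes by Benjamini and Hochberg's method and a call at an adjusted p under 0.05. In this comparison 6.8% of all tested genes were called, with 4.05% called lower and 2.75% called higher. For 7 of the 8 genes, all but CTH, every rapamycin library lay below every DMSO library, as for 13.1% of all tested genes. The median log2 fold change of the 8 genes was -0.37, beside 0.02 over all genes tested. In bulk RNA, fewer cells with a transcript and less transcript per cell cannot be told apart.

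**Figure D1:**
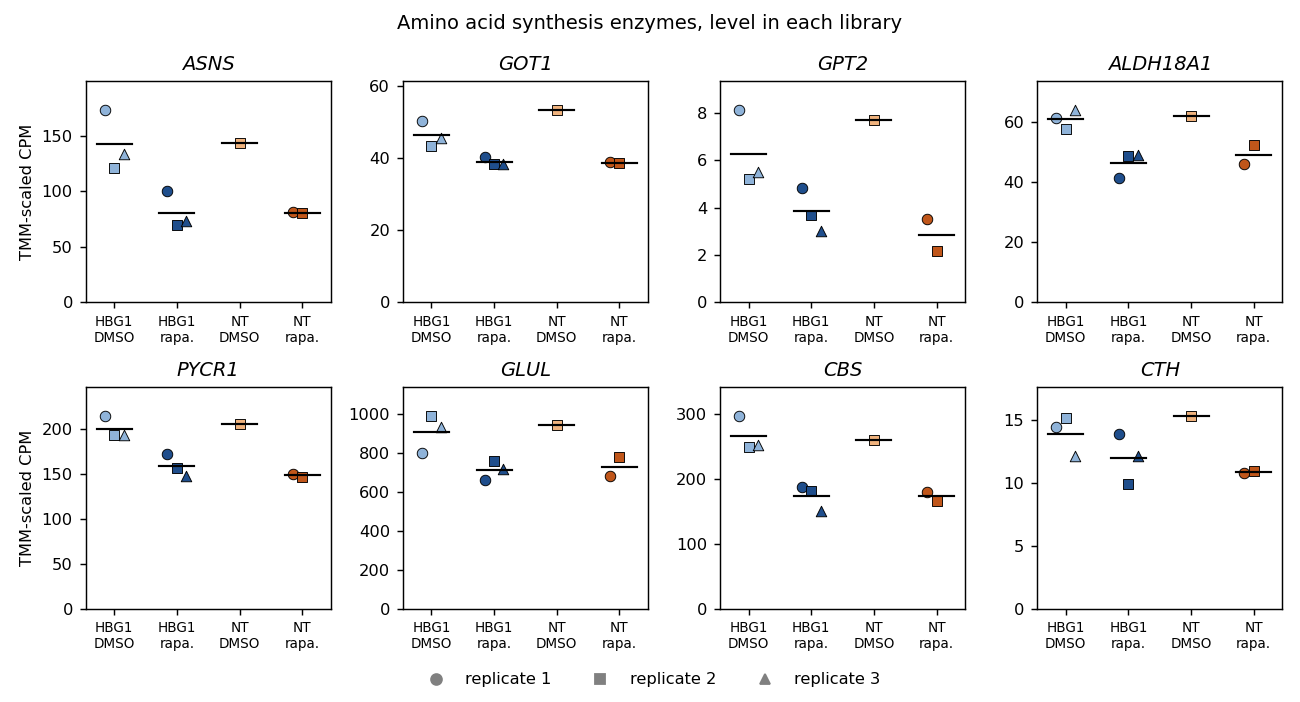
Level of the 8 genes in each of the 9 libraries, as TMM-scaled CPM from 0, by guide (HBG1 or non-targeting, NT) and treatment (rapa., rapamycin). Symbols are replicates and lines are group means. With the HBG1 sgRNA every rapamycin library lies below every DMSO library for 7 genes, and CTH overlaps.

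ASNS (ENSG00000070669, chromosome 7, 97852118 to 97872542, minus strand, GRCh38 by GENCODE 29) showed the largest called fall. Its level with the HBG1 sgRNA was 173, 121 and 134 CPM in DMSO replicates 1, 2 and 3 and 99.97, 69.4 and 73.4 CPM in rapamycin replicates 1, 2 and 3. Every rapamycin library lay below every DMSO library, and replicate 1 was the highest under both treatments. Between matched replicates the log2 change was -0.79, -0.80 and -0.86. The fitted log2 fold change was -0.82 (SE 0.13, edgeR adjusted p 0.00182), and the call held under all 15 alternatives tried.

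GOT1 (ENSG00000120053, chromosome 10, 99396870 to 99431569, minus strand) stood at 50.3, 43.4 and 45.5 CPM in DMSO replicates 1, 2 and 3 and at 40.2, 38.4 and 38.3 CPM under rapamycin. The groups did not overlap, but the spacing was small: the log2 fold change was -0.25 (SE 0.09, edgeR adjusted p 0.0983). GPT2 (ENSG00000166123, chromosome 16, 46884378 to 46931297, plus strand) was the least abundant of the 8, with 48 to 251 counts per library. It stood at 8.13, 5.2 and 5.51 CPM under DMSO and at 4.85, 3.71 and 3.02 CPM under rapamycin, again without overlap. Its fold change was about as large as that of ASNS, at -0.72 on the log2 scale, with a standard error of 0.25 and an edgeR adjusted p of 0.101. With replicate number as a block over the 6 HBG1 sgRNA libraries, which called 17.1% of all genes, both passed: GPT2 at -0.69 (edgeR adjusted p 0.0189) and GOT1 at -0.24 (edgeR adjusted p 0.0355).

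ALDH18A1 (ENSG00000059573, chromosome 10, 95605929 to 95656706, minus strand), which makes the first committed intermediate of proline synthesis, stood at 61.2, 57.7 and 63.9 CPM in DMSO replicates 1, 2 and 3. Under rapamycin it was at 41.3, 48.6 and 49.0 CPM, all below the DMSO libraries. Its log2 fold change was -0.39 (SE 0.09, edgeR adjusted p 0.0173). PYCR1 (ENSG00000183010, chromosome 17, 81932384 to 81942412, minus strand), which completes proline, went from 214, 193 and 193 CPM to 172, 157 and 147 CPM, with a log2 fold change of -0.34 (SE 0.08, edgeR adjusted p 0.0157). Both proline genes thus fell by a similar step. The call of ALDH18A1 was lost without HBG1 sgRNA DMSO replicate 3 (edgeR adjusted p 0.0853) and that of PYCR1 without HBG1 sgRNA rapamycin replicate 3 (0.0930).

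GLUL (ENSG00000135821, chromosome 1, 182381704 to 182392206, minus strand), glutamine synthetase, was the most abundant of the 8. Its DMSO libraries stood at 800.1, 988 and 932 CPM and its rapamycin libraries at 660.4, 759.6 and 716 CPM, in the order of replicates 1 to 3. Here replicate 1 was the lowest under both treatments, the reverse of its place for ASNS. The log2 fold change was -0.35 (SE 0.09, edgeR adjusted p 0.0218). This call was lost without HBG1 sgRNA DMSO replicate 2 (edgeR adjusted p 0.136), DMSO replicate 3 (0.0929) or rapamycin replicate 3 (0.0816), and with replicate number as a block it held (0.000334).

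In transsulfuration CBS passed the test and CTH did not, and the ratio of CTH to CBS did not differ between treatments past the threshold (exact permutation p 0.117). CBS (ENSG00000160200, chromosome 21, 43053191 to 43076943, minus strand), its first enzyme, went from 297, 249 and 253 CPM in DMSO replicates 1, 2 and 3 to 188, 181 and 151 CPM under rapamycin. The log2 fold change was -0.62 (SE 0.09, edgeR adjusted p 0.000924), a call that held under all 15 alternatives. CTH (ENSG00000116761, chromosome 1, 70411218 to 70439851, plus strand), the second enzyme, stood at 14.5, 15.2 and 12.2 CPM under DMSO and at 13.9, 9.93 and 12.2 CPM under rapamycin, and the groups overlapped. Its log2 fold change was -0.22 (95% interval -0.53 to 0.09, SE 0.15, edgeR adjusted p 0.441). By matched replicate CTH changed by -0.06, -0.61 and 0.00 on the log2 scale, with the one sizeable change in replicate 2.

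CBS, ASNS, PYCR1 and GOT1 share transcript sequence or exon positions with other annotated genes. Of the distinct 100-base stretches in the CBS transcripts of GENCODE 29, 50.3% are also in transcripts of CBSL (chromosome 21, 6444869 to 6468040), and CBSL held 76.5% to 79.3% as many counts as CBS in each library. CBSL fell by 0.62 on the log2 scale with the HBG1 sgRNA (SE 0.09, edgeR adjusted p 0.000753). The fall of CBSL is therefore not a measurement separate from that of CBS. Whether CBSL is a second expressed copy was not tested. AC079781.5 (chromosome 7, minus strand) covers 44.6% of the exon bases of ASNS on the same strand and held 100.4% to 105.7% as many counts as ASNS. AC145207.4, antisense to PYCR1, covers 15.6% of its exon bases and held 36.0% to 44.2% as many counts, and without a stated strand setting the reads of the 2 cannot be told apart. The same holds for GOT1 and AL391684.1 on the opposite strand, which covers 19.3% of the exon bases of GOT1 and held 4.52% to 8.31% as many counts.

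**Figure D2:**
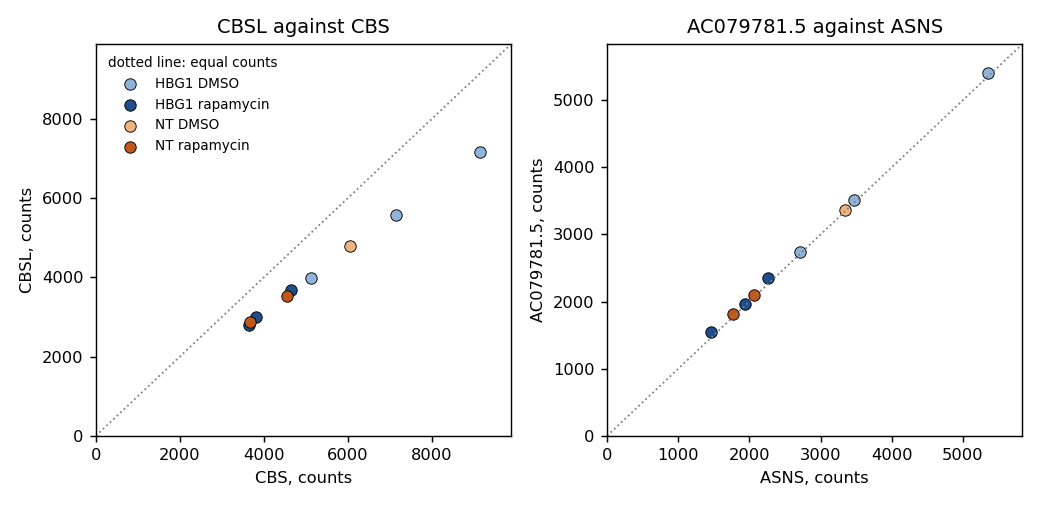
Counts of CBSL against CBS (left) and of AC079781.5 against ASNS (right), 1 point per library, coloured by guide and treatment, with a dotted line of equal counts. The points follow a straight line in both panels, with CBSL at 76.5% to 79.3% of CBS.

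The non-targeting sgRNA gave a separate set of libraries, 2 with rapamycin against 1 with DMSO, whose spread was assumed to be that of the other groups. All 8 genes were again lower, and for each of the 8 both rapamycin libraries lay below the DMSO library. In 35.4% of all tested genes the 2 rapamycin libraries lay below the DMSO library in this way, and in 10.3% they did so with both guides, against 7 of the 8 genes here. With edgeR 0 of the 8 passed at an adjusted p under 0.05, all 8 had an unadjusted p under 0.05, and DESeq2 called 5. Over all genes edgeR called 0.891% at the adjusted threshold (0.566% as lower), 14.1% had an unadjusted p under 0.05, and DESeq2 called 4.7% of those it gave an adjusted p. The median log2 fold change of the 8 genes was -0.48, beside 0.03 over all genes tested.

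ASNS stood at 144 CPM in the non-targeting DMSO library and at 81.4 and 80.4 CPM in rapamycin replicates 1 and 2. Its log2 fold change was -0.83 (SE 0.19, edgeR adjusted p 0.0568), within 0.01 of the value with the HBG1 sgRNA. CBS went from 259.7 to 180 and 167 CPM, a log2 fold change of -0.58 (SE 0.14, edgeR adjusted p 0.0556). PYCR1 went from 206 to 150.3 and 147 CPM, a log2 fold change of -0.47 (SE 0.11, edgeR adjusted p 0.0637). These 3 genes sat just outside the threshold.

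GPT2 had the largest difference of the 8, from 7.69 CPM to 3.51 and 2.18 CPM, a log2 fold change of -1.42 (SE 0.36, edgeR adjusted p 0.0770). GOT1 went from 53.3 to 38.8 and 38.5 CPM (log2 fold change -0.46, SE 0.13, edgeR adjusted p 0.103). GLUL went from 942 to 680 and 778 CPM, a log2 fold change of -0.37, and ALDH18A1 from 61.7 to 45.8 and 52.2 CPM, one of -0.33. CTH went from 15.3 to 10.8 and 11.0 CPM, a log2 fold change of -0.50 (SE 0.22, edgeR adjusted p 0.311).

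When libraries were blocked by replicate number in each guide separately, only 1 non-targeting pair informed the comparison, and 4 of the 8 passed, with 3.27% of all tested genes called: ASNS (edgeR adjusted p 3.81e-05), CBS (0.000542), GPT2 (0.00281) and PYCR1 (0.00467). The same 4 genes passed without HBG1 sgRNA DMSO replicate 1 (edgeR adjusted p 0.0181 to 0.0489, with 1.34% of all genes called) or without HBG1 sgRNA rapamycin replicate 1 (0.00653 to 0.0326, with 2.18% called). Neither library belongs to the groups compared here. They enter through the shared estimate of the spread, the filter on low counts, the scaling and the number of genes adjusted over. That number was 23270 without the DMSO library and 23532 without the rapamycin library.

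**Figure D3:**
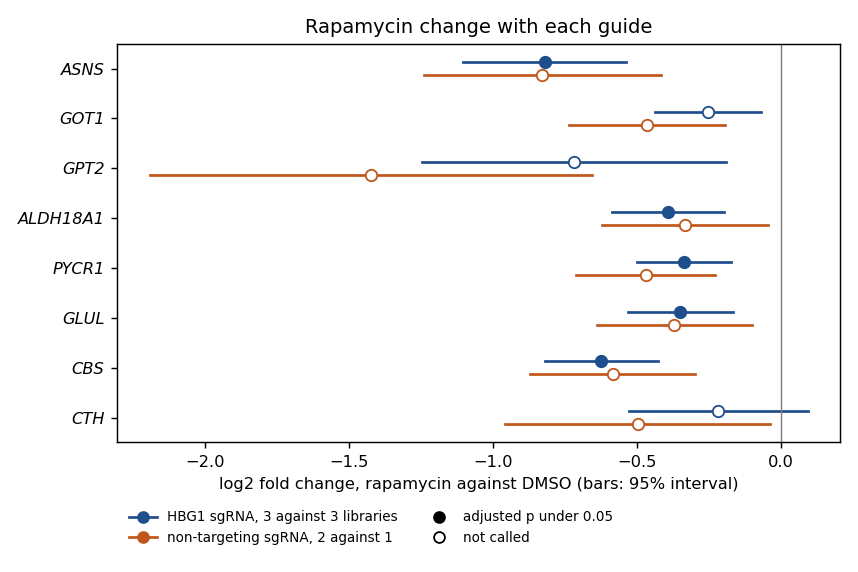
Fitted log2 fold change of each gene, rapamycin against DMSO, with its 95% interval, for the HBG1 sgRNA (blue) and the non-targeting sgRNA (orange). Filled points passed at an adjusted p under 0.05. All 16 points lie below 0, and the intervals of the 2 guides overlap for each gene.

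Whether the rapamycin change differed between the guides was tested as the interaction in the same fit. With edgeR 0 of the 8 genes passed, 0 had an unadjusted p under 0.05, and DESeq2 called 0, while edgeR called 0.00422% of all tested genes. Over all 23675 tested genes 678 had an unadjusted p under 0.05. At such shares 0 of 8 is near what all genes give and is not a result about the 8. For ASNS the difference between the changes was 0.01 on the log2 scale (95% interval -0.50 to 0.51). For CBS it was -0.04 (95% interval -0.39 to 0.31) and for PYCR1 0.14 (95% interval -0.16 to 0.43). The widest interval was that of GPT2, -0.24 to 1.65 around 0.71, and it includes 0.

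Under rapamycin itself the guides were compared over 3 HBG1 sgRNA and 2 non-targeting libraries. Again 0 of the 8 genes passed with edgeR, 0 had an unadjusted p under 0.05, and DESeq2 called 0, with 0.0296% of all genes called by edgeR (0.0169% higher and 0.0127% lower). Over all 23675 tested genes 1484 had an unadjusted p under 0.05, so 0 of 8 is again no result about the 8. The levels of the 2 groups overlapped for each of the 8 genes, and the share of all genes with such an overlap was not computed. Log2 differences ran from -0.08 for ALDH18A1 (95% interval -0.30 to 0.14) to 0.42 for GPT2 (95% interval -0.20 to 1.04), and that of ASNS was 0.00 (95% interval -0.32 to 0.32).

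Levels were compared between genes per length, as RPKM, which is CPM divided by kilobases of annotated exon. In the HBG1 sgRNA DMSO libraries the order was GLUL (100.4 ± 10.7 RPKM), PYCR1 (69.3 ± 4.26), CBS (39.3 ± 3.91), ASNS (32.0 ± 6.13), ALDH18A1 (16.2 ± 0.825), GOT1 (13.8 ± 1.05), CTH (5.77 ± 0.652) and GPT2 (0.989 ± 0.254), each as RPKM ± SD with n = 3. CBS and ASNS overlapped, and the other neighbours in the order did not. PYCR1, CBS, ASNS and GOT1 share sequence or exon positions with other genes, and how shared reads were counted is not given. Their places in the order are therefore less certain than the SDs show. The order was the same under rapamycin with the HBG1 sgRNA, from 78.8 ± 5.51 RPKM for GLUL to 0.607 ± 0.146 RPKM for GPT2 (SD, n = 3), and there ALDH18A1 and GOT1 overlapped as well.

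The balance between enzymes of the same amino acid was followed as the log2 ratio of 2 genes within a library, which library scaling does not affect. For 6 such pairs, 4 of which are reported here, rapamycin and DMSO were compared in all 9 libraries with labels exchanged within each guide (60 labelings, two-sided exact permutation test, smallest possible p 0.0167) and p-values were adjusted over the 6.

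GPT2 and GPT, the mitochondrial and cytosolic alanine aminotransferases, gave the lowest p of the 4. The GPT2 to GPT log2 ratio was 2.09 ± 0.25 with DMSO and 0.54 ± 0.22 with rapamycin (SD, n = 3 each) in the HBG1 sgRNA libraries. In the non-targeting libraries it was 2.53 with DMSO and 0.52 and -0.48 in the 2 rapamycin libraries. The fitted ratio was 0.278-fold (exact p 0.0167, adjusted p 0.05), which is at the threshold and not under it. GPT had 31 to 67 counts per library and a log2 fold change of 0.85 with the HBG1 sgRNA that did not pass (SE 0.31, edgeR adjusted p 0.118). An annotated transcript on the other strand overlaps GPT, so its counts are uncertain.

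The other 3 pairs overlapped between treatments with the HBG1 sgRNA and did not pass. GOT1 against the mitochondrial GOT2 had a log2 difference of -0.08 (exact p 0.35, adjusted p 0.35), and GOT2 was at 86.2% of its DMSO level with the HBG1 sgRNA (edgeR adjusted p 0.138, and 0.0197 with the replicate block). ALDH18A1 against OAT, which reaches the same intermediate from ornithine, had one of -0.24 (exact p 0.35, adjusted p 0.35). CTH against CBS had one of 0.31 (exact p 0.117, adjusted p 0.233).

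**Figure D4:**
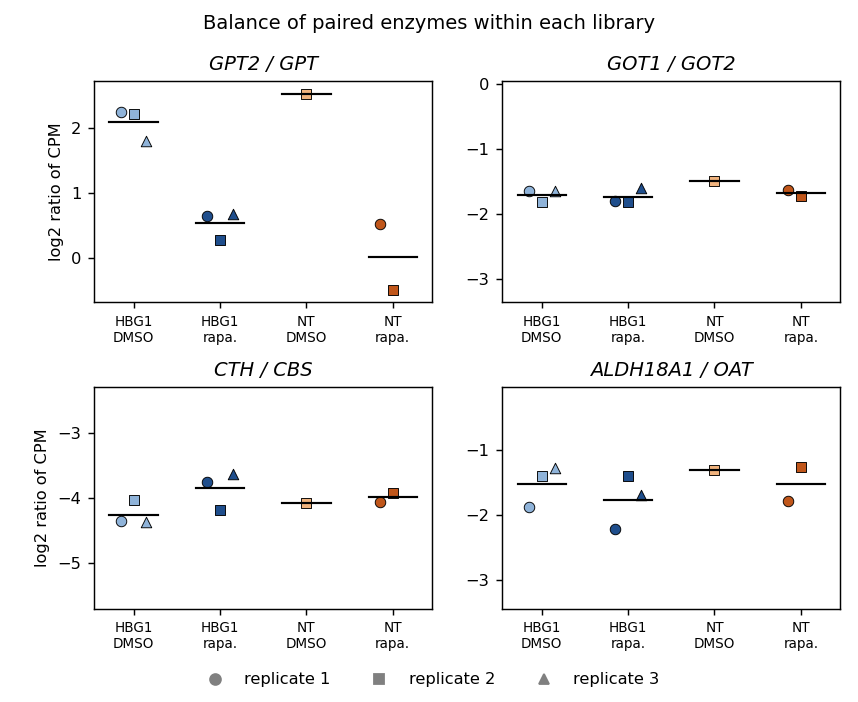
Log2 ratio of CPM of 2 enzymes within each library, for 4 pairs, by guide and treatment; symbols are replicates, lines are group means, and each panel spans the same number of log2 units. GPT2 to GPT is lower in every rapamycin library than in any DMSO library of the same guide, and the other 3 pairs overlap with the HBG1 sgRNA.

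Other enzymes of these pathways were followed as 3 lists. Among proline, ornithine and glutamate genes, 10 of 12 non-members could be tested with the HBG1 sgRNA, and their median log2 fold change was -0.05. Among asparagine, aspartate and alanine genes 12 of 14 could be tested, with a median of -0.06. BCAT1, the cytosolic branched-chain aminotransferase, fell to 63.5% (log2 fold change -0.66, SE 0.08, edgeR adjusted p 0.000240), and ASRGL1, which hydrolyses asparagine, rose to 154.7% (0.63, SE 0.17, edgeR adjusted p 0.0394). The rise of ASRGL1 was lost under 4 of 15 alternatives, without HBG1 sgRNA DMSO replicate 2 (edgeR adjusted p 0.175) or 3 (0.142) or rapamycin replicate 1 (0.0708) or 3 (0.137).

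Among methionine cycle, transsulfuration and glutathione genes 17 of 18 non-members could be tested, with a median of -0.05, and 2 passed as lower: CBSL, and MAT2A, which makes S-adenosylmethionine, at 77.0% (log2 fold change -0.38, SE 0.07, edgeR adjusted p 0.00348). Of the distinct 100-base stretches in CBSL transcripts, 83.5% are also in CBS transcripts. The calls of CBSL are therefore not separate from the result of the member CBS. In the non-targeting libraries the genes of these lists that passed were BCAT1 (68.1%, edgeR adjusted p 0.0327) and CBSL (65.9%, edgeR adjusted p 0.0413). Both calls were lost without HBG1 sgRNA DMSO replicate 2 (edgeR adjusted p 0.0612 and 0.0679), HBG1 sgRNA DMSO replicate 3 (0.0606 and 0.0651), non-targeting rapamycin replicate 1 (0.0917 and 0.172) or replicate 2 (0.205 each), and BCAT1 also without HBG1 sgRNA rapamycin replicate 3 (0.0566).

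Across the 9 libraries, log2 CPM of the members correlated with each other at Pearson's r from 0.423 (ALDH18A1 and CTH) to 0.973 (PYCR1 and CBS), over points that share treatment, replicate and library. ASNS, PYCR1, CBS, GPT2 and GOT1 correlated with each other at 0.892 or more, while ALDH18A1 and GLUL correlated most with each other (0.877). Among the 11498 genes whose mean log2 CPM was 3 or higher, the 3 most like ASNS were the overlapping AC079781.5, DDIT4 (0.988) and DDIT4-AS1 (0.987). For CBS they were CBSL (0.999), PDXK (0.991) and DNAJC11 (0.989), and for PYCR1 they were SRM (0.993), EXOSC10 (0.989) and SLC3A2 (0.988). GPT2 was most like RAC3 (0.983), EXOSC10 (0.967) and PDSS1 (0.966), and GOT1 most like ANKRD27 (0.982), AL354956.1 (0.965) and PPWD1 (0.961). ALDH18A1 was most like RDH13 (0.987), RNASEH1 (0.977) and HYOU1 (0.968), and GLUL most like ITGA5 (0.982), BRPF1 (0.978) and VHL (0.974). The values for CTH were lower, at 0.970 for NDUFB7, 0.959 for AL109811.2 and 0.947 for ZIC2.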

How the data were processed

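The authors deposited 1 table of raw counts, with Ensembl genes in lines and the 9 libraries in columns. STAR 2.7.3a, featureCounts of Subread 2.0.0 and the build GRCh38 are named in the submitters' processing notes. The annotation release, strand setting and treatment of shared reads are not given in the sources used here. Symbols, positions and exon lengths came from GENCODE 29, which held 58039 of the 58347 IDs.

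Counts were tested with edgeR 4.0.16 in R 4.3.3 (filterByExpr by group at a minimum count of 10, TMM factors of 0.977 to 1.02, glmQLFit and glmQLFTest). All 9 libraries entered 1 fit with 1 mean per group, and the single non-targeting DMSO library was assumed to vary like the others. Standard errors were taken from each log2 fold change and its F statistic. CPM and RPKM were computed here from the deposited counts on the TMM scale. Alternatives were DESeq2 1.42.0, RLE scaling, no filter, other designs and leaving out each library. The code was tested on simulated data.

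Sample titles gave the groups and replicate numbers. As a check on pairing, the departures of HBG1 sgRNA libraries from their group means were correlated over 11498 genes between treatments. Libraries of the same number gave 0.553 (replicate 1), 0.278 (replicate 2) and 0.231 (replicate 3), each above the limit of 0.1 set for pairing. Libraries 2 and 3 were not separated from each other (0.258 for rapamycin 2 with DMSO 3 and 0.194 for rapamycin 3 with DMSO 2), while replicate 1 gave -0.407 to -0.324 with the others, and between the guides under rapamycin the values were -0.068 and -0.069. Within a group no 2 libraries were repeats of one: chi-square per gene between replicates ran from 4.48 to 16.3. Libraries of different groups, and so the single non-targeting DMSO library, were not compared in this way.

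The 8 genes, the pairs and the gene lists were chosen with earlier results of these data known. The genes named are the 8 members, their partners in the ratio pairs, CBSL, genes of the 3 lists that passed, and the 3 genes most correlated with each member. Of the 6 pairs 2, and some genes of the lists, are not reported here. Genes that overlap members were named after their counts were seen.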

Additional observations from a re-analysis of the deposited data

How the results depend on the processing

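With the HBG1 sgRNA all 8 genes stayed lower than DMSO under all 15 alternatives each. Of those 120 values, 109 kept their side of the threshold, 5 lost a call and 6 gained one. Members called ran from 3 to 6 when single libraries were left out, with 3 without HBG1 sgRNA DMSO replicate 3 or rapamycin replicate 3, and the count was 7 with the replicate block. All genes called were 1609 in the unpaired fit, 664 to 1731 when single libraries were left out, 3441 with the replicate block and 3263 in the additive model. The replicate block changed the calls of GPT2 and GOT1 among the members, and that of GOT2.

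With the non-targeting sgRNA the 8 genes stayed lower throughout, and 23 of 96 values gained a call. Members called were 0 in the main comparison, 5 without a filter, 4 with the replicate block within each guide, 5 with DESeq2 and 0 to 4 when single libraries were left out. All genes called were 211, against 668, 774, 660 and 0 to 514 in the same order. Between guides under rapamycin all genes called were 7, against 91 without a filter, 21 with the replicate block, 13 with DESeq2 and 3 to 8 when single libraries were left out. In the interaction 1 gene was called, against 8, 5, 0 and 0 to 4 in that order. The causes of these shifts were not tested.

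Differences near 0 changed sign. Between guides, ASNS was 0.001 over the 5 rapamycin libraries and 0.027 with the replicate block, and CBS 0.060 with it. In the interaction with the block within each guide, GLUL was -0.069 and CBS 0.017. When single libraries were left out, values between guides ran from -0.178 to 0.089 for ASNS, -0.169 to 0.017 for ALDH18A1, -0.127 to 0.066 for GLUL, -0.065 to 0.090 for CBS and -0.009 to 0.025 for GOT1. Interactions ran from -0.169 to 0.174 for ASNS, -0.150 to 0.036 for ALDH18A1, -0.071 to 0.122 for GLUL and -0.102 to 0.054 for CBS, and the rapamycin change of OAT with the HBG1 sgRNA from -0.308 to 0.054. The 4 enzyme ratios reported kept their direction under their 10 alternatives each, with adjusted p of 0.05 at the lowest. Low counts limit GPT2 (48 to 251 per library) and GPT (31 to 67).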
